A study of Mus musculus with 18 samples.

Results

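The 7 genes described here are the immediate early response genes Ier2, Ier3 and Ier5, the mRNA-decay genes Zfp36, Zfp36l1 and Zfp36l2, and Phlda1, all read in mouse embryonic stem (ES) cells. They were chosen by function, with earlier results of these data known. The RefSeq transcript names of the array's probes gave 8 of 56605 non-control probes for them: 2 for Zfp36l1 and 1 for each other gene. All 7 were among the 16022 genes tested. The cells were of strain 129SV and, per the labels, all carried a knockout of the orphan nuclear receptor gene Esrrb and expressed Raf-ErT2, a Raf kinase fusion switched on by 4-hydroxytamoxifen (4OHT) and acting on ERK through Mek. An empty vector had been added to the cells of 9 arrays (labelled KO) and a transgene for Esrrb to those of the other 9 (labelled Rescue), so every group is a modified line. For the last 24 h before treatment, 250 nM PD173074, which blocks FGF receptors, replaced 2 uM Chir99021, which blocks GSK3, in medium with serum and LIF. Each line had 3 arrays titled 0h (untreated), 3 titled 8h (250 nM 4OHT for 8 h) and 3 titled 8h2h (4OHT for 8 h and then a Mek inhibitor for 2 h). The sources used here do not give whether a line is 1 clone or which promoter drives Raf-ErT2 or the transgene.

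Immediate-early genes are switched on by growth signals, among them ERK, without the need for newly made protein, and their mRNAs are short-lived. ERK reaches many of them through ternary complex factors of the ETS family that sit beside serum response factor (SRF), whose binding sequence is called the CArG box. The Zfp36 proteins bind AU-rich elements in the 3' ends of short-lived mRNAs and recruit the deadenylase that shortens their tails, and genes of this family are themselves induced by growth signals. In ES cells ERK activity goes with exit from naive pluripotency.

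Some features of the arrays bear on the values. On 12 of the 18 arrays the title and the source name disagree: the source names put the Mek inhibitor on arrays titled 8h and leave it out on arrays titled 8h2h. Groups follow the titles, and "titled" is kept throughout because a direction between titled 8h and titled 8h2h rests on this choice. Dusp6, a phosphatase gene that ERK activity induces, was lower by 4.41 ± 0.23 (KO-labelled) and 4.25 ± 0.23 (Rescue-labelled) on the log2 scale (± SE) on arrays titled 8h2h than on those titled 8h. For Esrrb itself only the brightest kept probe was read here. In 9 of 9 pairs matched by slide and title, it gave more signal on the KO-labelled array. Its group means were 3.75 to 5.03 on KO-labelled arrays and 1.62 to 4.40 on Rescue-labelled arrays (log2 scaled signal). More signal on KO-labelled arrays goes against the line labels, although a probe outside the deleted part would check nothing. The sources used here do not give the deleted part. The lines are therefore called KO-labelled and Rescue-labelled, and every direction between them rests on these labels. Each replicate letter is 1 slide with all 6 groups, and since the place of a group was fixed across slides, its effect cannot be told apart from that of the group. KO-labelled replicate b titled 8h2h had a raised background, with 88.6% of probes well above background against 46.6% to 56.4% on the other KO-labelled arrays and 53.6% to 63.8% on the Rescue-labelled arrays. Rescue-labelled replicate c titled 0h was the dimmest array, with a 75th percentile of 297 in processed signal, against 369 to 765 on the others. All 8 ES cell markers fixed for the check were well above background on all 3 arrays of every group. Of 7 feeder fibroblast markers, 1 to 5 were, and Lum and Postn were in no group.

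RefSeq promoter sequence (build GRCm38.p6) was at hand for 4 of the 7 genes: Ier3, Ier5, Zfp36 and Zfp36l1. All 4 were called higher titled 8h against 0h in both lines, Zfp36l1 by its brighter probe only, so the rise does not set apart the genes with a motif. The 250 bases before the gene start are shown for the pair of genes in which a motif was found. Capitals mark the motif letters. Both genes lie on the minus strand, and the sequences run 5' to 3' towards the gene start.
Zfp36, chr7:28379229-28379478: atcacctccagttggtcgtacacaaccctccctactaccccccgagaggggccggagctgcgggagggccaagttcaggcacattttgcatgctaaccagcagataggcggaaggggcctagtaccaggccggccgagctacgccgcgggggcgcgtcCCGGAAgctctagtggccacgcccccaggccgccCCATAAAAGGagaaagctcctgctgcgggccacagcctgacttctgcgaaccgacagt
Zfp36l1, chr12:80113014-80113263: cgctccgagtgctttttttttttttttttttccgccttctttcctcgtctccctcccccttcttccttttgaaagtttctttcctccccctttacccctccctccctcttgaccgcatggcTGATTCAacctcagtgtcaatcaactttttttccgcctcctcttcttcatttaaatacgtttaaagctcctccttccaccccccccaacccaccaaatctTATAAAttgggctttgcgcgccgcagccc
The motifs searched on both strands were the CArG box of SRF, the ETS core CCGGAA, the cyclic AMP element TGACGTCA, the AP-1 element TGANTCA and the TATA box TATAAA. The Zfp36 window held a CArG box 58 to 49 bases before the start and CCGGAA 92 to 87 bases before it, which 1.47% and 12% of the 32851 promoters of the same length also hold. The Zfp36l1 window held TGANTCA 129 to 123 bases and TATAAA 29 to 24 bases before the start, against 6.75% and 12.4% of all promoters. TGACGTCA, found in 1.55% of all promoters, was in none of the 4 windows, and the Ier3 and Ier5 windows held none of the searched strings. Other forms of these elements were not searched, so the lack of a match does not mean that an element is absent. The Ier5 window, for example, holds tatataag near its end, which differs from TATAAA in the last letter. The Ier3 window and a further place in the Zfp36 window hold ggaa, the end of CCGGAA. The Zfp36l1 window holds ttcc, which is ggaa on the other strand. A match describes letters in a window and not a bound site.

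On arrays titled 8h against those titled 0h, 6 of the 7 genes were higher in the KO-labelled line and all 7 in the Rescue-labelled line, at an adjusted p below 0.05 (limma, Benjamini-Hochberg over all genes tested). On arrays titled 8h2h against those titled 8h, all 7 were lower in both lines. Of all genes, 11.9% (KO-labelled) and 13% (Rescue-labelled) were called higher in the first comparison and 13.5% (KO-labelled) and 16.1% (Rescue-labelled) lower. In the second, 3.2% (KO-labelled) and 1.45% (Rescue-labelled) were called lower and 4.14% (KO-labelled) and 1.43% (Rescue-labelled) higher. The members' median log2 change in the first comparison was 1.71 (KO-labelled) and 1.56 (Rescue-labelled), where the median of all genes was -0.04 (KO-labelled) and -0.05 (Rescue-labelled). In the second it was -2.02 (KO-labelled) and -1.73 (Rescue-labelled), where the median of all genes was 0.01 (KO-labelled) and 0.00 (Rescue-labelled). Within each slide the sign was the same for every gene in both comparisons, 21 of 21 gene and slide pairs in each line. The 2 comparisons share the arrays titled 8h, so a gene that is high on those arrays enters both. Because the 7 genes were chosen with earlier results of these data known, the all-gene shares describe the setting and test nothing. Of the 5 trophoblast markers tested, 4 were also called higher and 1 lower titled 8h against 0h in the KO-labelled line (median 1.93) and 3 higher and none lower in the Rescue-labelled line (median 1.24), and the part of such cells in the members' changes was not tested. Nothing in the labels says that the replicates came from separate cultures, so the p-values measure the spread between these arrays, which may be technical.

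**Figure D1:**
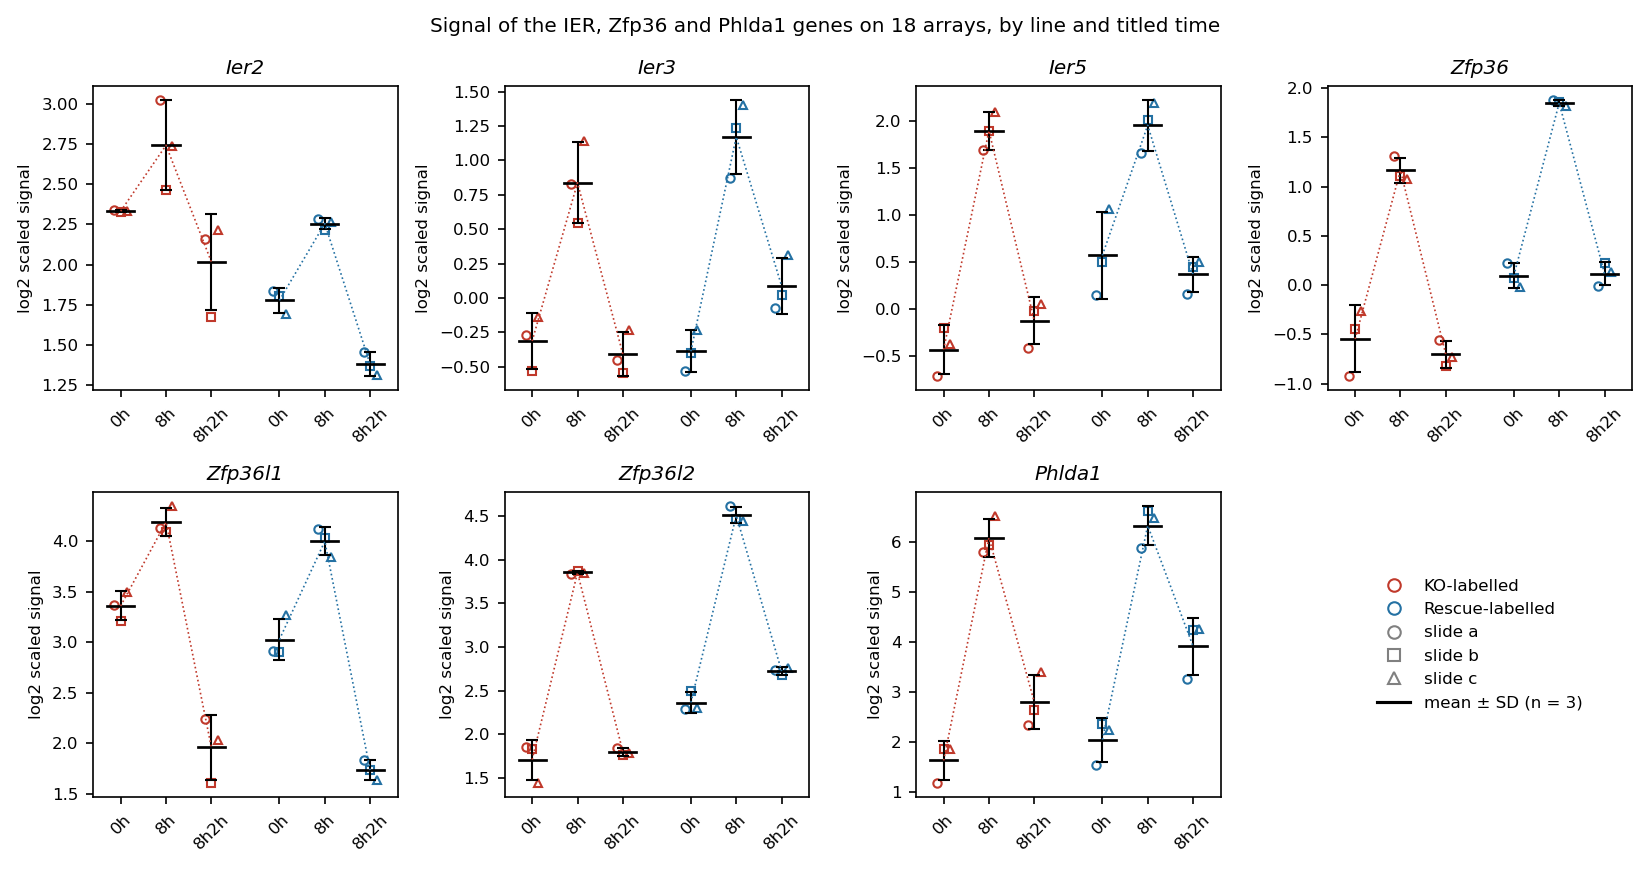
Log2 scaled signal (vertical axis: log2 processed signal minus the array's 75th percentile) of the 7 genes on each array titled 0h, 8h or 8h2h, KO-labelled left of Rescue-labelled. Each point is 1 array, with a marker for its slide, and bars are the mean ± SD of 3 arrays; in every panel the arrays titled 8h are the highest of their line, from 0.41 above those titled 0h (Ier2) to 4.45 above (Phlda1) in the mean of the KO-labelled line.

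Ier2, a nuclear protein gene of the IER family, had the smallest change of the group. KO-labelled arrays read 2.34, 2.32 and 2.33 on slides a, b and c when titled 0h, 3.02, 2.46 and 2.74 on arrays titled 8h, and 2.16, 1.68 and 2.22 when titled 8h2h (log2 scaled signal). Rescue-labelled arrays read 1.84, 1.80 and 1.69, then 2.28, 2.22 and 2.27, then 1.46, 1.37 and 1.31. The groups titled 8h and 0h did not overlap in either line, yet only the Rescue-labelled change passed the test, at 0.48 ± 0.15 (SE; adjusted p = 0.023), against 0.41 ± 0.15 (adjusted p = 0.0528) in the KO-labelled line. With the slide as a block the KO-labelled value is called as well (adjusted p = 0.0306). It is also called without the array of raised background (adjusted p = 0.0149), with quantile normalization (adjusted p = 0.0344) and with a filter over all 18 arrays (adjusted p = 0.0411). Leaving out KO-labelled replicate b titled 8h (0.55, adjusted p = 0.0146) or replicate c titled 8h2h (adjusted p = 0.0492) gives that call too. The Rescue-labelled call is lost with normexp background correction, with no scaling between arrays, where the value is 0.82, and when replicate a, b or c titled 8h or replicate c titled 0h of that line is left out (0.43 to 0.50, adjusted p = 0.0517 to 0.0676). Titled 8h2h against 8h, the change was -0.72 ± 0.15 in the KO-labelled line (adjusted p = 0.00752) and -0.88 ± 0.15 in the Rescue-labelled line (adjusted p = 0.00346). Both of those calls are lost with no scaling between arrays, and the KO-labelled one with only the arrays compared (adjusted p = 0.259).

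Ier3, which codes for a regulator of ERK signalling and survival, rose in both lines. On KO-labelled arrays the signal was -0.27, -0.53 and -0.13 when titled 0h, 0.83, 0.55 and 1.14 on arrays titled 8h and -0.45, -0.54 and -0.23 when titled 8h2h. On Rescue-labelled arrays the signal was -0.53, -0.40 and -0.23, then 0.88, 1.24 and 1.40, then -0.07, 0.02 and 0.32. Arrays titled 8h were above all others of their line. The change titled 8h against 0h was 1.15 ± 0.18, or 2.22-fold, in the KO-labelled line (adjusted p = 0.000243) and 1.56 ± 0.18, or 2.94-fold, in the Rescue-labelled line (adjusted p = 1.41e-05). Against titled 8h, the titled 8h2h value was -1.24 ± 0.18 in the KO-labelled line (adjusted p = 0.000614) and -1.08 ± 0.18 in the Rescue-labelled line (adjusted p = 0.00327), of which the second call is lost with no scaling between arrays and the first with only the arrays compared.

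Ier5, an immediate-early gene linked to the stress response, had the largest difference between the lines in its change titled 8h against 0h, a difference that was not called in the fit without slides (adjusted p = 0.188) and was called with the slide as a block (adjusted p = 0.0109). The KO-labelled values were -0.72, -0.21 and -0.37 when titled 0h, 1.69, 1.89 and 2.10 on arrays titled 8h and -0.41, -0.02 and 0.05 when titled 8h2h. The Rescue-labelled values were 0.15, 0.49 and 1.06, then 1.66, 2.01 and 2.19, then 0.15, 0.45 and 0.50. Before scaling, the Rescue-labelled processed signals titled 0h were 597, 653 and 620, so the high value of replicate c came with the scaling of that dim array. The lines lay apart when titled 0h and overlapped when titled 8h. The change titled 8h against 0h was 2.33 ± 0.23, or 5.03-fold, in the KO-labelled line (adjusted p = 3.2e-06) and 1.38 ± 0.23, or 2.61-fold, in the Rescue-labelled line (adjusted p = 0.000331). Its change titled 8h2h against 8h was -2.02 ± 0.23 in the KO-labelled line (adjusted p = 5.99e-05) and -1.59 ± 0.23 in the Rescue-labelled line (adjusted p = 0.000983).

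Zfp36, which codes for tristetraprolin, the founding member of its family of AU-rich element binding proteins, was lower on KO-labelled than on Rescue-labelled arrays at each title. Its KO-labelled values were -0.93, -0.45 and -0.27 when titled 0h, 1.31, 1.11 and 1.08 on arrays titled 8h and -0.56, -0.82 and -0.73 when titled 8h2h. Its Rescue-labelled values were 0.23, 0.08 and -0.02, then 1.88, 1.85 and 1.82, then -0.01, 0.22 and 0.14. The lines did not overlap at any title. The change titled 8h against 0h was 1.71 ± 0.15, or 3.28-fold, in the KO-labelled line (adjusted p = 9.76e-07) and 1.75 ± 0.15, or 3.37-fold, in the Rescue-labelled line (adjusted p = 6.77e-07). Titled 8h2h against 8h it was -1.87 ± 0.15 in the KO-labelled line (adjusted p = 2.22e-06) and -1.73 ± 0.15 in the Rescue-labelled line (adjusted p = 7.84e-06).

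Zfp36l2, a family member with roles in early development and blood formation in the mouse, followed the same path with little spread. KO-labelled arrays gave 1.85, 1.84 and 1.44 when titled 0h, 3.84, 3.87 and 3.85 on arrays titled 8h and 1.85, 1.76 and 1.79 when titled 8h2h. Rescue-labelled arrays gave 2.29, 2.50 and 2.30, then 4.61, 4.47 and 4.45, then 2.74, 2.68 and 2.76. Every Rescue-labelled array was above every KO-labelled array of the same title. The change titled 8h against 0h was 2.15 ± 0.11 in each line, 4.43-fold in the KO-labelled line (adjusted p = 7.44e-09) and 4.42-fold in the Rescue-labelled line (adjusted p = 5.6e-09). The later change, titled 8h2h against 8h, was -2.06 ± 0.11 in the KO-labelled line (adjusted p = 6.33e-08) and -1.79 ± 0.11 in the Rescue-labelled line (adjusted p = 2.76e-07).

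Zfp36l1, the remaining family member on the list, was read by 2 probes that disagreed. By the brighter one, which stands for the gene, the KO-labelled line read 3.37, 3.21 and 3.50 when titled 0h, 4.13, 4.10 and 4.35 on arrays titled 8h and 2.23, 1.61 and 2.03 when titled 8h2h. The Rescue-labelled line read 2.91, 2.90 and 3.27, then 4.12, 4.03 and 3.85, then 1.83, 1.73 and 1.64. Arrays titled 8h2h lay below those titled 0h in both lines, with no overlap between the groups. The change titled 8h against 0h was 0.83 ± 0.16, or 1.78-fold, in the KO-labelled line (adjusted p = 0.00117) and 0.97 ± 0.16, or 1.96-fold, in the Rescue-labelled line (adjusted p = 0.00029). Titled 8h2h against 8h it was -2.23 ± 0.16 in the KO-labelled line (adjusted p = 8.39e-07) and -2.27 ± 0.16 in the Rescue-labelled line (adjusted p = 8.83e-07). Titled 8h2h against 0h it was -1.40 ± 0.16, or 2.64-fold lower, in the KO-labelled line (adjusted p = 1.89e-05) and -1.29 ± 0.16, or 2.45-fold lower, in the Rescue-labelled line (adjusted p = 3.57e-05).

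The dimmer Zfp36l1 probe gave none of these calls. Its group means were 0.11, 0.19 and -0.01 in the KO-labelled line and -0.17, 0.00 and -0.19 in the Rescue-labelled line, in the order titled 0h, 8h and 8h2h, and the groups overlapped. Its change titled 8h against 0h was 0.08 ± 0.23 in the KO-labelled line (limma over probes, adjusted p = 0.895) and 0.17 ± 0.23 in the Rescue-labelled line (adjusted p = 0.714). Taking the mean of both probes gives 0.45 for the KO-labelled change titled 8h against 0h (adjusted p = 0.0777), which ends that call. The other 5 called changes between titles keep their calls with that mean but are smaller, at 0.57 (Rescue-labelled, 8h against 0h), -1.22 and -1.23 (KO- and Rescue-labelled, 8h2h against 8h) and -0.76 and -0.66 (KO- and Rescue-labelled, 8h2h against 0h). With no scaling between arrays the KO-labelled value titled 8h2h against 0h is -0.93. Both probes were well above background on all 18 arrays, at a processed signal of 1504 to 13371 for the brighter and 312 to 945 for the dimmer, and the parts of the transcript they read were not analysed here.

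**Figure D2:**
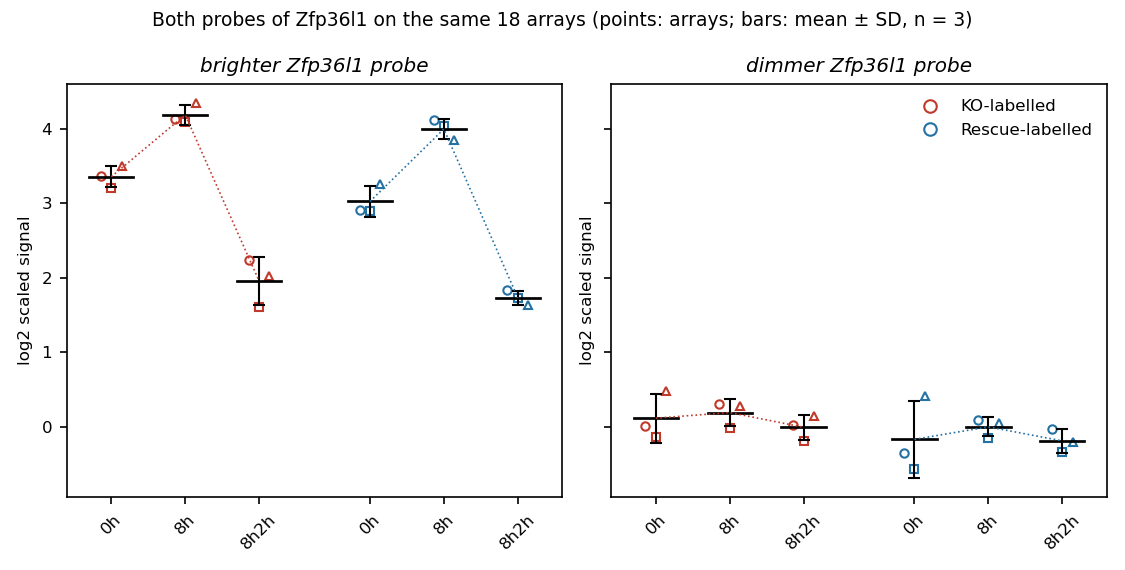
Log2 scaled signal of both Zfp36l1 probes (vertical axis) on each array, by title, KO-labelled left of Rescue-labelled; points are arrays and bars the mean ± SD of 3. The brighter probe ran from group means of 1.73 to 4.19, while the dimmer stayed between -0.19 and 0.19.

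Phlda1, a pleckstrin-homology-like domain gene induced by growth factors, had the largest change of the 7. The KO-labelled signal was 1.19, 1.86 and 1.86 when titled 0h, 5.81, 5.95 and 6.52 on arrays titled 8h and 2.36, 2.65 and 3.41 when titled 8h2h. The Rescue-labelled signal was 1.55, 2.37 and 2.24, then 5.89, 6.63 and 6.48, then 3.26, 4.25 and 4.26. Replicate a was the lowest in each group of 3. The change titled 8h against 0h was 4.45 ± 0.35, or 21.9-fold, in the KO-labelled line (adjusted p = 4.77e-07) and 4.28 ± 0.35, or 19.4-fold, in the Rescue-labelled line (adjusted p = 6.32e-07). Set against titled 8h, titled 8h2h gave -3.29 ± 0.35, or 9.76-fold lower, in the KO-labelled line (adjusted p = 4.32e-05) and -2.41 ± 0.35, or 5.31-fold lower, in the Rescue-labelled line (adjusted p = 0.00121).

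Arrays titled 8h2h were next set against those titled 0h, to see how near each gene lay to its untreated level. In the KO-labelled line 2 of the 7 genes were called, Phlda1 higher and Zfp36l1 lower. In the Rescue-labelled line 3 were, Phlda1 and Zfp36l2 higher and Zfp36l1 lower. Of all genes, 11% were called higher and 11.4% lower in the KO-labelled line, and 10.5% higher and 10.8% lower in the Rescue-labelled line. Phlda1 was 1.16 ± 0.35 above titled 0h in the KO-labelled line (adjusted p = 0.0287) and 1.87 ± 0.35 above it in the Rescue-labelled line (adjusted p = 0.00155). The KO-labelled Phlda1 call is lost without replicate a titled 0h (0.94, adjusted p = 0.112) or replicate c titled 8h2h (0.86, adjusted p = 0.108), and with only the arrays compared. Zfp36l2 was 0.36 ± 0.11 above titled 0h in the Rescue-labelled line (adjusted p = 0.0283), a call lost without any 1 of 5 arrays (adjusted p up to 0.0908), with normexp background correction (0.09, adjusted p = 0.689), with no scaling between arrays (0.77, adjusted p = 0.121), with no filter on dim probes (adjusted p = 0.0581) and with only the arrays compared (adjusted p = 0.0779), against 0.09 ± 0.11 in the KO-labelled line (adjusted p = 0.585). The 4 others, Ier2, Ier3, Ier5 and Zfp36, lay within -0.40 to 0.47 of titled 0h with adjusted p of 0.0669 or more. With the slide as a block, Ier2 (-0.40, adjusted p = 0.0389) and Ier3 (0.47, adjusted p = 0.0106) are called too in the Rescue-labelled line. Ier2 is also called there with quantile normalization (adjusted p = 0.0325), without the array of raised background (adjusted p = 0.0198) and without KO-labelled replicate a or b titled 8h. With no scaling between arrays, where the median of all genes is 0.47 (KO-labelled) and 0.36 (Rescue-labelled), Ier5 is called in the KO-labelled line (0.77, adjusted p = 0.0207) and Ier3 in the Rescue-labelled line (0.88, adjusted p = 0.0376). Of the 5 trophoblast markers, 4 were called higher in the KO-labelled line (median 1.60) and 3 in the Rescue-labelled line (median 1.07) in this comparison, and none was called lower.

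**Figure D3:**
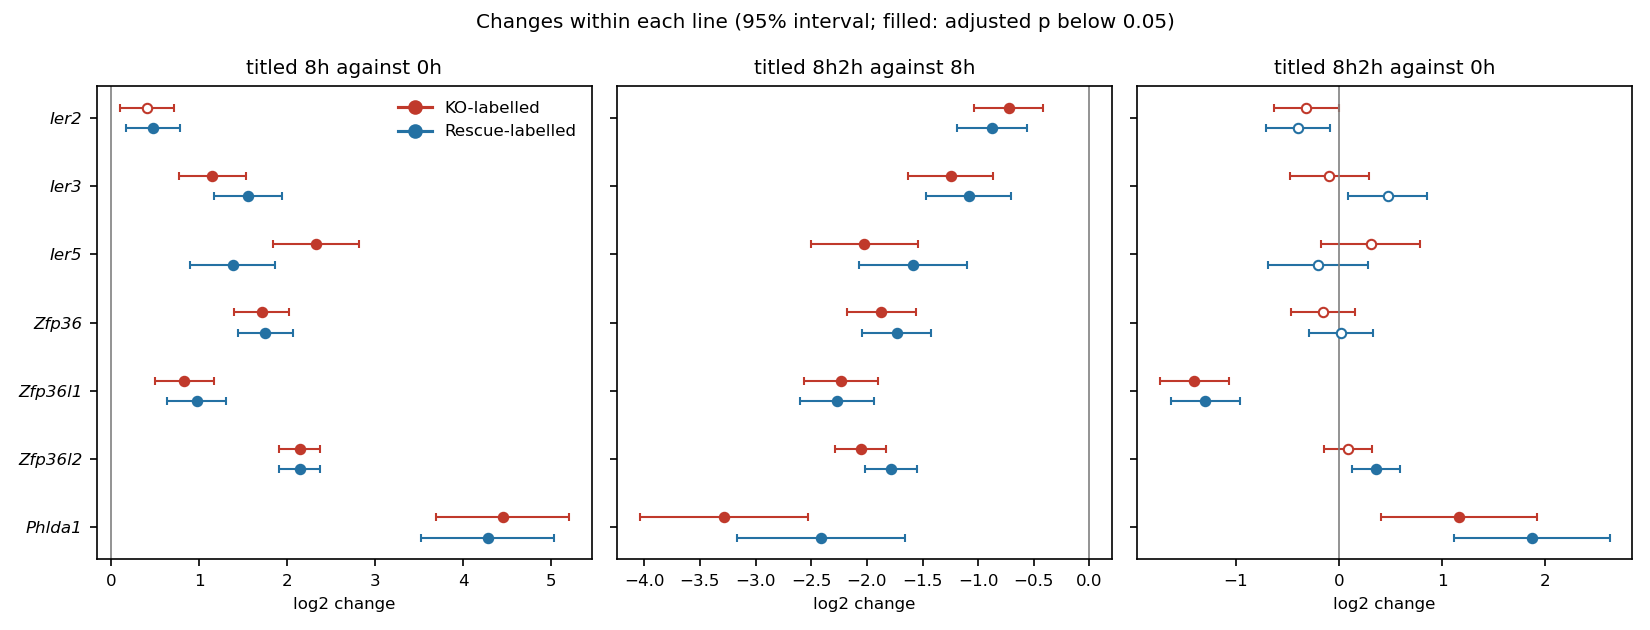
Log2 change of each gene (horizontal axis) between titles, with its 95% interval, KO-labelled above Rescue-labelled; filled points have an adjusted p below 0.05. All 7 genes lie right of 0 for titled 8h against 0h and left of it for titled 8h2h against 8h, and Phlda1 is the farthest out in the first panel, at 4.45 (KO-labelled) and 4.28 (Rescue-labelled).

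The order of the group means differed between genes. Ier3, Ier5, Zfp36, Zfp36l2 and Phlda1 were highest on Rescue-labelled arrays titled 8h, with KO-labelled arrays titled 8h next; those neighbours overlapped for Ier3, Ier5 and Phlda1 and did not for Zfp36 and Zfp36l2. Ier2 was highest on KO-labelled arrays titled 8h, followed by KO-labelled arrays titled 0h, which lay above the Rescue-labelled arrays titled 8h by a mean of only 0.08. Zfp36l1 was highest on KO-labelled arrays titled 8h, which overlapped Rescue-labelled arrays titled 8h, and lowest on Rescue-labelled arrays titled 8h2h. For Phlda1 the lower 4 groups each overlapped the next.

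Between the lines, 4 of the 7 genes were called on arrays titled 0h, 3 on those titled 8h and 4 on those titled 8h2h, where 18.4%, 21.5% and 21.8% of all genes were. Of all genes, 7.09%, 9.16% and 9.55% were higher on KO-labelled arrays at these titles and 11.3%, 12.4% and 12.3% were lower. Zfp36 and Zfp36l2 were lower and Ier2 higher on KO-labelled arrays at every title. Zfp36 differed by -0.64 ± 0.15 when titled 0h (adjusted p = 0.00676), -0.68 ± 0.15 when titled 8h (adjusted p = 0.00383) and -0.82 ± 0.15 when titled 8h2h (adjusted p = 0.00108). Zfp36l2 differed by -0.65 ± 0.11 (adjusted p = 0.000752), -0.65 ± 0.11 (adjusted p = 0.000632) and -0.93 ± 0.11 (adjusted p = 4.57e-05) in the same order. Ier2 differed by 0.55 ± 0.15 (adjusted p = 0.0159), 0.49 ± 0.15 (adjusted p = 0.0272) and 0.64 ± 0.15 (adjusted p = 0.00609). The Ier2 call titled 8h is lost with normexp background correction, with only the arrays compared, and when any 1 of 5 arrays is left out (0.34 to 0.50, adjusted p = 0.0607 to 0.141). The Ier2 call titled 0h is lost without Rescue-labelled replicate c (adjusted p = 0.0514). With only the arrays compared, the calls of Zfp36 (adjusted p = 0.0918) and Zfp36l2 (adjusted p = 0.0508) titled 0h and of Ier2 titled 8h2h (adjusted p = 0.0721) are lost as well.

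Ier5 was lower on KO-labelled arrays titled 0h, at -1.003 ± 0.23 (adjusted p = 0.00648; 0.0564 with only the arrays compared), and differed by -0.06 (95% interval -0.54 to 0.43, adjusted p = 0.903) on arrays titled 8h and -0.49 ± 0.23 (adjusted p = 0.144) when titled 8h2h. Phlda1 was lower on KO-labelled arrays titled 8h2h, by -1.12 ± 0.35 (adjusted p = 0.0353), although the groups overlapped. That call is lost without KO-labelled replicate a (-0.90, adjusted p = 0.123) or b, the array of raised background (-1.04, adjusted p = 0.0697), and without Rescue-labelled replicate b (-0.96, adjusted p = 0.133) or c (-0.95, adjusted p = 0.134), and with only the arrays compared (adjusted p = 0.138). Ier3 and Zfp36l1 were called at no title, with differences of -0.49 to 0.07 and 0.19 to 0.33. With the slide as a block, Ier3 (-0.49, adjusted p = 0.00848) and Ier5 (-0.49, adjusted p = 0.00984) are called when titled 8h2h. Ier3 is also called there with quantile normalization (-0.59, adjusted p = 0.0450) and with a filter over all 18 arrays (adjusted p = 0.0460). The same holds without KO-labelled replicate c titled 8h (adjusted p = 0.04997). Without scaling between arrays, the median of all genes between the lines is 0.12, 0.11 and 0.21 at titles 0h, 8h and 8h2h, and 1 call between the lines is left, Ier5 when titled 0h. In that fit Ier2 was at 0.70, 0.61 and 0.84, Zfp36 at -0.50, -0.56 and -0.62 and Zfp36l2 at -0.51, -0.53 and -0.73 at the 3 titles, and Phlda1 at -0.92 titled 8h2h.

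Trophoblast markers moved with the line. The mean log2 scaled signal of the 5 trophoblast markers tested was -3.10 to -1.74 on KO-labelled arrays and -0.32 to 0.07 on Rescue-labelled arrays titled 0h. It was 0.08 to 0.17 on KO-labelled arrays and 1.18 to 1.36 on Rescue-labelled arrays titled 8h, and -0.22 to -0.16 on KO-labelled arrays and 0.82 to 1.08 on Rescue-labelled arrays titled 8h2h. Of these 5 markers, 4 were called lower on KO-labelled arrays titled 0h and none higher, and 3 lower and 1 higher at each other title. On KO-labelled arrays titled 0h, Cdx2, Elf5 and Hand1 were not well above background on all 3 arrays. Of 5 primitive endoderm markers, 2 were called lower on KO-labelled arrays titled 0h (median -1.13), 1 lower when titled 8h, and 1 higher and 1 lower when titled 8h2h. These markers were near background: Gata4 and Pdgfra were not well above it on all 3 KO-labelled arrays of any title. Sox7 was not in either line titled 0h. The mean of the 5 was -2.62 on the array of raised background, against -4.04 and -3.90 on the other KO-labelled arrays titled 8h2h. Of 5 feeder fibroblast markers tested, none was called at title 0h and 1 was higher on KO-labelled arrays at each other title. Of 8 ES cell markers, 3 were higher on KO-labelled arrays at each title and 1 was lower at title 0h. The part of such cells in the differences between the lines was not tested, and in bulk RNA fewer cells of a type cannot be told apart from less RNA per cell.

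**Figure D4:**
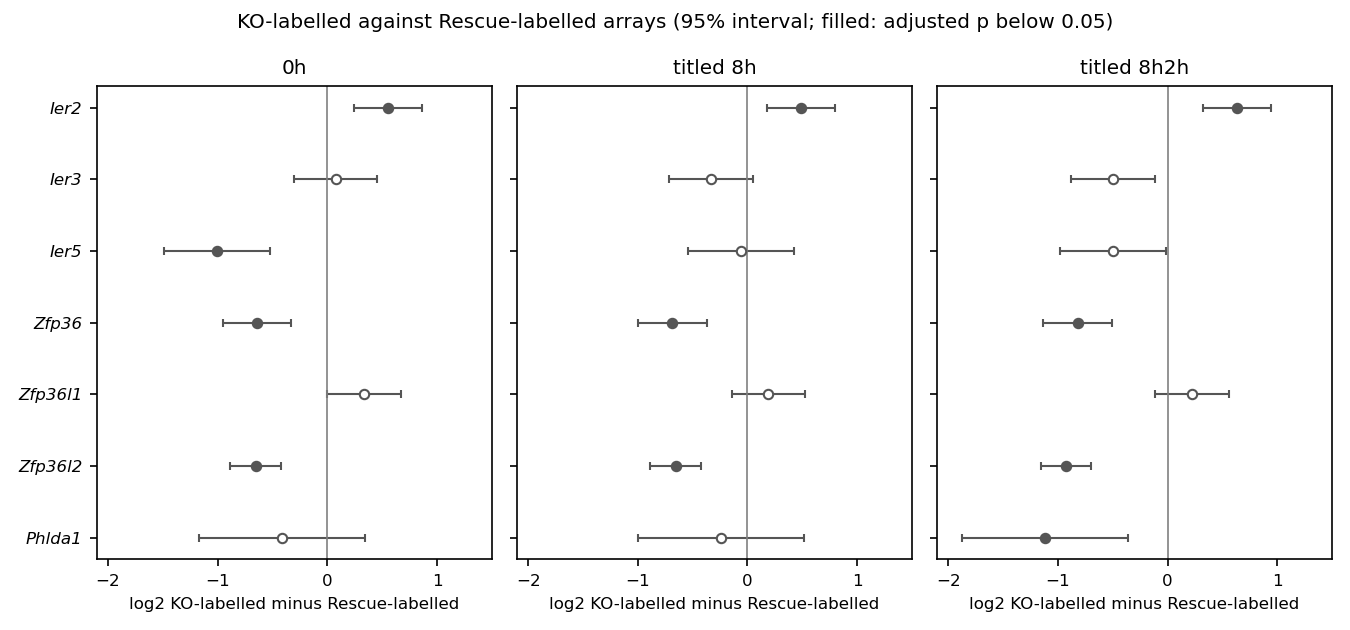
Log2 difference, KO-labelled minus Rescue-labelled, of each gene (horizontal axis) when titled 0h, 8h and 8h2h, with its 95% interval; filled points have an adjusted p below 0.05. Ier2 lies right of 0 and Zfp36 and Zfp36l2 left of it in all 3 panels, while Ier5 is at -0.06 when titled 8h, against -1.003 when titled 0h.

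Whether a change between titles itself differed between the lines was tested as the difference of the changes, KO-labelled minus Rescue-labelled. In the fit without slides none of the 7 genes was called in any of the 3 such comparisons. There limma called 2.28% (titled 8h against 0h), 0.0562% (8h2h against 8h) and 2.02% (8h2h against 0h) of all genes. At an unadjusted p below 0.05 the counts were 1 (Ier5), 0 and 1 (Ier3). The Ier5 change titled 8h against 0h differed by 0.95 ± 0.32 (95% interval 0.26 to 1.63, adjusted p = 0.188), with 0.90, 0.59 and 1.34 on slides a, b and c. With the slide as a block its SE is 0.17 and this value is called (adjusted p = 0.0109). For Ier3 the change titled 8h2h against 0h differed by -0.57 ± 0.25 (adjusted p = 0.336), with -0.64, -0.42 and -0.64 on the slides. For Phlda1 the change titled 8h2h against 8h differed by -0.88 ± 0.50 (95% interval -1.95 to 0.19, adjusted p = 0.996), with -0.81, -0.92 and -0.89 on the slides.

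The wider set of 45 immediate-early genes, which holds none of the 7, moved in both directions. It too was chosen with earlier results of these data known. Titled 8h against 0h, 22 rose and 8 fell in the KO-labelled line and 25 rose and 8 fell in the Rescue-labelled line, with median log2 changes of 0.68 (KO-labelled; -0.04 over all genes) and 1.05 (Rescue-labelled; -0.05 over all genes). Of all genes, 11.9% rose and 13.5% fell in the KO-labelled line and 13% rose and 16.1% fell in the Rescue-labelled line. Titled 8h2h against 8h, 3 rose and 19 fell in the KO-labelled line (median -0.25) and 3 rose and 18 fell in the Rescue-labelled line (median -0.68), where 4.14% and 3.2% of all genes rose and fell in the KO-labelled line and 1.43% and 1.45% in the Rescue-labelled line. Egr3, a zinc finger factor of the EGR family, was at least 11.3-fold higher (KO-labelled) and at least 37.7-fold higher (Rescue-labelled) when titled 8h than 0h, a lower bound because no array titled 0h read it well above background. Fosl1, an AP-1 subunit, rose by 3.57 ± 0.47 (KO-labelled) and 5.23 ± 0.47 (Rescue-labelled). Titled 8h2h against 8h, Egr1 changed by -4.87 ± 0.15 (KO-labelled) and -4.02 ± 0.15 (Rescue-labelled) and Myc by -4.26 ± 0.14 (KO-labelled) and -3.65 ± 0.14 (Rescue-labelled), each with an adjusted p of 2.76e-09 or less. Between the lines 5 were higher and 22 lower on KO-labelled arrays titled 0h (7.09% and 11.3% of all genes), 2 and 28 at title 8h (9.16% and 12.4%), and 3 and 26 at title 8h2h (9.55% and 12.3%). The list's median difference was -0.42, -0.75 and -0.99 at these titles, where that of all genes was -0.02, -0.01 and 0.01. For the line difference in the change titled 8h against 0h, 2 of the 45 were called higher and 5 lower (median -0.33). The counts were 1 and 0 titled 8h2h against 8h (median -0.0007) and 1 and 4 titled 8h2h against 0h (median -0.24). Of all genes, 2.28%, 0.0562% and 2.02% were called in either direction.

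A list of 34 genes held the deadenylation, decapping and AU-rich element machinery with which Zfp36 proteins act. Titled 8h against 0h, none rose and 5 fell in the KO-labelled line and 4 rose and 4 fell in the Rescue-labelled line, with a median of -0.03 in each. Over all genes 11.9% rose and 13.5% fell (KO-labelled, median -0.04) and 13% rose and 16.1% fell (Rescue-labelled, median -0.05). Btg2, a deadenylase-binding antiproliferative gene that is on the immediate-early list too, changed by -1.49 ± 0.31 (KO-labelled, adjusted p = 0.00247) and -1.12 ± 0.31 (Rescue-labelled, adjusted p = 0.0143). Dcp2, the decapping enzyme, changed by -0.78 ± 0.15 (KO-labelled, adjusted p = 0.00155) and -0.76 ± 0.15 (Rescue-labelled, adjusted p = 0.00176). Only Tob1 was called in the KO-labelled line titled 8h2h against 8h, at 0.70 ± 0.18 (adjusted p = 0.0265), and none of the 34 was called in the Rescue-labelled line. Between the lines 2 of the 34 were higher and 2 lower on KO-labelled arrays titled 0h (7.09% and 11.3% of all genes). The counts were 1 and 4 at title 8h (9.16% and 12.4%) and 3 and 3 at title 8h2h (9.55% and 12.3%). Among the lower ones, Mapkapk2, the kinase that phosphorylates tristetraprolin, was lower at each title, at -0.84, -0.79 and -0.95 (adjusted p = 0.0181, 0.0218 and 0.00755).

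Of 32 genes whose mRNAs are reported targets of Zfp36 proteins, 22 were tested. Among them Fos, Mcl1 and Myc are on the immediate-early list too, so the lists are not separate sets. Titled 8h against 0h, 8 rose and 4 fell in the KO-labelled line (median 0.10) and 9 rose and 4 fell in the Rescue-labelled line (median 0.11). The all-gene shares and medians of that comparison are those given for the machinery list. Nanog, a naive pluripotency factor, fell by 3.59 ± 0.34 (KO-labelled, adjusted p = 2.81e-06) and by 4.73 ± 0.34 (Rescue-labelled, adjusted p = 1.78e-07) on the log2 scale. Plaur, the urokinase receptor, rose by 2.85 ± 0.22 (KO-labelled, adjusted p = 3.2e-07) and 2.67 ± 0.22 (Rescue-labelled, adjusted p = 5.27e-07). Titled 8h2h against 8h, 1 rose and 5 fell in the KO-labelled line (median -0.04; 4.14% and 3.2% of all genes) and 2 rose and 5 fell in the Rescue-labelled line (median -0.32; 1.43% and 1.45% of all genes). Pim1, a kinase gene, changed by -1.61 ± 0.18 (KO-labelled, adjusted p = 5.6e-05) and -1.99 ± 0.18 (Rescue-labelled, adjusted p = 1.58e-05).

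For each of the 7 genes the 3 other genes with the highest Pearson correlation over the 18 arrays were found, as a description. The arrays share slides and 6 group means, so these values mostly follow the groups. Zfp36 was most like Csrnp1 (0.977), Pmaip1 (0.970) and Junb (0.962), and Zfp36l2 was most like Csrnp1 (0.979), Nppb (0.974) and Shb (0.971). Zfp36l1 was most like Epha2 (0.979), Pim1 (0.959) and Zbtb11 (0.959). Phlda1 was most like Slc39a14 (0.980), Ccl20 (0.978) and Trib1 (0.975). Ier3 was most like Arc (0.959), Nppb (0.958) and Junb (0.956), and Ier5 was most like Pmaip1 (0.955), Shb (0.947) and Tor4a (0.932). Ier2 was most like Tgif1 (0.932), Ceacam1 (0.927) and Ceacam2 (0.921), the last 2 being near-identical genes whose probes may not tell them apart. Among the 7 themselves, the correlation was highest between Zfp36 and Zfp36l2 (0.970) and lowest between Ier2 and Zfp36l2 (0.345).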

How the data were processed

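RNA from 18 samples was measured on 1-colour Agilent arrays, 1 array each. Per the file headers, the authors used version 12.0.1.1 of Agilent Feature Extraction, and the processed signal they deposited, an intensity, is not scaled between arrays. Their table of values equals it at all 62976 spots on the 18 arrays. Deposited flags mark outlier and saturated spots and those well above background. The labels name Cy5, while the headers describe 1 green channel.

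From the log2 of the processed signal, the 75th percentile of the 59305 non-control spots of its array was subtracted. Probes that cleared the background flag on the 3 arrays of any group stayed in, and the brightest of them stood for its gene, which gave 16022 genes. All 144 readings of the 8 member probes were well above background and 0 were saturated. Probes were named through RefSeq accessions, ignoring versions (32994 of 56605 probes). With R 4.3.3 (packages limma 3.58.1 and, for reading, version 1.17.8 of data.table) all 18 arrays were fitted together by group, so a gene's spread is shared by the 6 groups. In each of 12 contrasts a call needed an adjusted p under 0.05 (limma, Benjamini-Hochberg over all genes, two-sided). The number of arrays limits the precision.

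The members and lists were chosen with earlier results of these data known. Named are all 7 members, the 3 genes most like each, and, per contrast, the called genes of each fixed list with the largest changes (the text names fewer). Where a whole group lay at background, a fold is a lower bound against the lowest signal read above background. Same-slide arrays deviated together at r over 0.1 in 28 of 45 pairs (lowest -0.058, median 0.141, highest 0.733). Each replicate letter is 1 slide, so an effect of the slide cannot be told apart from that of the replicate set. The labels state no blocked analysis, so the main fit leaves the slide out and the slide block is an alternative. The others were normexp background correction, quantile normalization, no scaling, the authors' table, 2 other filters on dim probes, the mean of a gene's probes, only the arrays compared, and each array left out in turn. The procedure was tested on simulated data whose arrays varied independently. These held no slide effect and no array of raised background, so that test checks neither.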

Additional observations from a re-analysis of the deposited data

Results flagged for a closer look

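Relatives of the members, Phlda2 and Ier5l, were singled out because their change differed between the lines by a test of the difference itself. Phlda2, an imprinted growth-restraining gene of the placenta, averaged 1.72, 2.19 and 1.97 (log2 scaled signal) on KO-labelled arrays titled 0h, 8h and 8h2h and 0.51, 2.59 and 2.23 on Rescue-labelled arrays. Its change titled 8h against 0h differed by -1.61 ± 0.27 (KO-labelled minus Rescue-labelled) and its change titled 8h2h against 0h by -1.48 ± 0.27. Both comparisons share the arrays titled 0h, where Phlda2 was higher on KO-labelled arrays. Ier5l averaged 3.76, 4.25 and 3.23 on KO-labelled arrays and 3.91, 4.85 and 4.01 on Rescue-labelled arrays, and its change titled 8h2h against 0h differed by -0.63 ± 0.12. All 3 are lost with no scaling between arrays, and the Ier5l call also with normexp background correction, with quantile normalization, with only the arrays compared and without Rescue-labelled replicate b titled 8h2h.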

How the results depend on the processing

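The authors' table holds the same values as the processed signal, so it tests nothing and is left out of the tally. Of 2184 member values under the other alternatives, 2072 kept their direction and their side of the threshold, 51 kept their direction and lost the call, 20 kept it and gained a call, and 41 changed sign with neither value called (at most 0.37 in size). The cause of these changes was not tested. The members called between the lines when titled 0h, 8h and 8h2h, 4, 3 and 4, became 1, 0 and 0 with no scaling between arrays; with only the arrays compared they were 1 when titled 0h and 2 when titled 8h2h. Titled 8h2h against 0h in the KO-labelled line, 2 became 1 with only the arrays compared. With the replicate block (slide), 3 became 5 titled 8h2h against 0h in the Rescue-labelled line, 0 became 1 for the line difference in the change titled 8h against 0h, and 4 became 6 between the lines when titled 8h2h. Leaving out each array in turn gave 3 to 4, 2 to 3 and 3 to 5 between the lines, 6 to 7 in both lines titled 8h against 0h, 7 in both titled 8h2h against 8h, and, titled 8h2h against 0h, 1 to 2 (KO-labelled; 1 without replicate a titled 0h or replicate c titled 8h2h) and 2 to 4 (Rescue-labelled). It gave 0 for every line difference.

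The member values that changed sign were all uncalled. With no scaling these were Ier5 between the lines titled 8h (0.065), Ier2 (0.012) and Ier5 (0.21) titled 8h2h against 0h in the Rescue-labelled line, Ier2 (0.15), Ier3 (0.37) and Zfp36 (0.31) in the KO-labelled line, and Zfp36l2 in the line difference titled 8h against 0h (-0.019, and -0.0556 with quantile normalization). With normexp they were Zfp36 (0.066) and Zfp36l2 (-0.13) titled 8h2h against 0h in the KO-labelled line, Zfp36 in the line difference titled 8h against 0h (0.12), and Ier2 (-0.026), Zfp36 (0.047) and Zfp36l1 (0.0072) in the line difference titled 8h2h against 0h. Leaving out 1 array moved Ier3 between the lines titled 0h from -0.014 to 0.19, Ier5 titled 8h from -0.20 to 0.062, Ier5 and Zfp36 titled 8h2h against 0h (Rescue-labelled) from -0.41 to 0.043 and from -0.036 to 0.086, and Zfp36l2 (KO-labelled) from -0.043 to 0.16. In the line difference titled 8h against 0h it moved Ier2 from -0.21 to 0.070, Phlda1 from -0.049 to 0.43, Zfp36 from -0.23 to 0.10 and Zfp36l2 from -0.13 to 0.070. It moved Zfp36l1 from -0.10 to 0.21 titled 8h2h against 8h, and Ier2 from -0.018 to 0.25 and Zfp36l1 from -0.25 to 0.066 titled 8h2h against 0h. For the 203 called changes of list genes, 4911 of 5435 values under the alternatives stayed called with the same sign and 2 changed sign. That tally includes the authors' table, whose values are the same by construction. Signal over background did not limit the members, which were read well above it on every array.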

Other observations

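Among the closest relatives of the 7 genes, Phlda3, a p53-induced relative of Phlda1, moved the other way: titled 8h against 0h it changed by -1.38 ± 0.20 in the KO-labelled line (limma, adjusted p = 0.000156) and -1.11 ± 0.20 in the Rescue-labelled line (adjusted p = 0.000842). It was lower on KO-labelled arrays at every title, by -1.12, -1.39 and -1.45. Ier5l, a relative of Ier5, rose titled 8h against 0h by 0.49 ± 0.08 in the KO-labelled line and 0.94 ± 0.08 in the Rescue-labelled line, and changed by -1.01 ± 0.08 (KO-labelled) and -0.84 ± 0.08 (Rescue-labelled) titled 8h2h against 8h. Phlda2 rose by 2.08 ± 0.19 titled 8h against 0h in the Rescue-labelled line, against 0.47 ± 0.19 in the KO-labelled line, where it was not called (adjusted p = 0.0850). Zfp36l3 and Ier3ip1 were called in neither line titled 8h against 0h or titled 8h2h against 8h.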
